A study of Rattus norvegicus with 8 samples.

Results

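A set of genes of plasmacytoid dendritic cells, Siglech, Kmo, Pygm, Gpm6b, Irf8, Tcf4, Kdr and Cyb561a3, was followed in immune cells from rat liver, before and after cryopreservation. They are 8 of the 32754 genes counted, and all 8 were detected in every library. Livers came from 4 male Han Wistar rats. Animals NC1 and NC2 were negative controls on a choline-sufficient, amino acid-defined (CSAA) diet, and animals PC1 and PC2 were positive controls on the matching choline-deficient (CDAA) diet, so each diet has 2 animals. Leukocytes were enriched on a density medium after lysis of red blood cells. From each liver, fresh cells went into 1 library, and cells kept frozen in DMSO for 3 weeks and then thawed went into another, 8 libraries in all. The labels describe no genetic change and no sorting of cells. Preserved cells were processed after storage, so the day of processing and preservation cannot be told apart.

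The genes were chosen by their level in Siglech-positive cells, with the higher share of such cells after preservation already known. Their specificity to these cells and their change in whole libraries are therefore descriptions without a test. The tests concern the level within Siglech-positive cells and the diets. The first are not independent of the choice, since the level in positive cells is a part of the whole-library change. For Pygm this part was 55.1% of the mean change.

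Plasmacytoid dendritic cells (pDCs) are rare blood-derived cells that sense viral nucleic acids in endosomes and secrete type I interferon. Siglech encodes Siglec-H, a receptor that belongs to the family of sialic acid binding lectins, marks rodent pDCs and signals through the adaptor Tyrobp. Tcf4 is the E protein transcription factor that pDCs need to form and to keep their identity, and Irf8 is a transcription factor of dendritic cells, monocytes and B cells. Kmo is an enzyme of the kynurenine route of tryptophan breakdown, and Pygm is the muscle form of glycogen phosphorylase, which releases glucose units from glycogen. Cyb561a3 is an iron reductase of the cytochrome b561 family that sits in lysosomal membranes. Kdr is the main receptor for vascular endothelial growth factor on endothelial cells, and Gpm6b is a membrane glycoprotein of the proteolipid family.

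The counts carried the rat Ensembl identifiers ENSRNOG00000021499 for Siglech, ENSRNOG00000003709 for Kmo and ENSRNOG00000021090 for Pygm. RefSeq promoter sequences of the GRCr8 build, from 250 bases before to 50 bases after the start of the gene, matched 7 of the 8 genes, and Gpm6b had no entry. Each was searched on both strands for GAAANNGAAA, to which interferon regulatory factors bind, for GGAANNGAAA, to which Irf8 binds beside an ETS factor, and for the E-box variants CAGCTG and CAGGTG, to which E proteins bind. GAAANNGAAA was found in 1 of the 7 promoters against 3.92% of 33469 rat promoters of the same length, and GGAANNGAAA in 0 of 7 against 2.94%. CAGCTG was found in 2 of 7 against 15.1%, and CAGGTG in 0 of 7 against 18.8%. A match describes letters and not a bound site. The promoters of Siglech, the gene that defines the cells, of Kmo, which holds the match to GAAANNGAAA, and of Pygm, the 1 gene of the 8 called within positive cells below, are printed 5′ to 3′ on the plus strand, with motif matches in capitals. That of Siglech lies at chr1:115729241-115729540, that of Kmo at chr13:90089271-90089570 and that of Pygm at chr1:213119555-213119854.
Siglech: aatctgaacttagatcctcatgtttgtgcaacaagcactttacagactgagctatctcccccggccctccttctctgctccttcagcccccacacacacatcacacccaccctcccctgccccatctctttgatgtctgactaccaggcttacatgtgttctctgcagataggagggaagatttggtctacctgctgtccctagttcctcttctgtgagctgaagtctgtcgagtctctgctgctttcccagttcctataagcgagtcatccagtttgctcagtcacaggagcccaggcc
Kmo: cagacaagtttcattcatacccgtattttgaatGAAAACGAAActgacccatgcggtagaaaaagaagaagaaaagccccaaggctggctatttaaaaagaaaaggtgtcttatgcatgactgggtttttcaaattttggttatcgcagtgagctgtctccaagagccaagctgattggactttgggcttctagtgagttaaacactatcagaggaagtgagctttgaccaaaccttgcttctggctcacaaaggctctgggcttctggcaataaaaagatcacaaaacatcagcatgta
Pygm: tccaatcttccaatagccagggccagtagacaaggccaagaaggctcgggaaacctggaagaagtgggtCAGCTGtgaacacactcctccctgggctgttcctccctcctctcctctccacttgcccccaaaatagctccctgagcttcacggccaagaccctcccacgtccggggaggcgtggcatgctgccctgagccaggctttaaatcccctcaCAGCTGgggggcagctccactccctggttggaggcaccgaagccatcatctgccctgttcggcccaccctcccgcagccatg
The match in Kmo begins 217 bases before the start of the gene, and the CAGCTG matches in Pygm begin 181 and 32 bases before it. The third CAGCTG match begins 226 bases before the start of Cyb561a3, whose sequence is not printed. No listed motif was found in the Siglech promoter.

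Libraries held 18338700 to 26471843 UMIs (unique molecular identifiers, which count captured transcripts), and 34052 barcodes with at least 500 UMIs and 100 genes were taken as cells, 3673 to 4771 per library, with median depths of 3339 to 4309 UMIs. Between 13 and 36 cell barcodes were shared by any pair of libraries. Levels are given as CPM, the UMIs of a gene per 1000000 UMIs summed over the cells named. The UMI counts come from the 3′ end of transcripts and carry no length correction, so levels are compared between cells and not between genes. Intervals of shares are exact binomial ones at 95% and cover counting error only.

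A cell was called Siglech-positive when it held at least 2 Siglech UMIs. This held for 5288 of 34052 cells, while 6499 cells had 1 Siglech UMI and 22265 had 0. Cells just inside the threshold, with 2 Siglech UMIs, had 44.2 CPM of Kmo and 42.5 CPM of Pygm. Cells just outside, with 1 Siglech UMI, had 20.6 and 21.1 CPM, close to the 15.5 and 18.2 CPM of cells with 0. At 3 Siglech UMIs the levels were 99.6 CPM of Kmo and 87.2 CPM of Pygm. Cells were also clustered without the 8 genes. Clusters 10, 11 and 19 had at least 5 of 13 pDC markers 2-fold higher than the remaining cells, and they are called the pDC marker clusters. The 13 markers include Siglech, and each of these clusters had 9 of them, against at most 1 in any other cluster. They held 55.2% of the cells with 3 Siglech UMIs, 21.8% of those with 2 and 4.52% of those with 1.

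In the fresh libraries 65.0% of the positive cells of NC1 lay in the pDC marker clusters, 72.2% of NC2, 63.5% of PC1 and 59.9% of PC2. In the preserved libraries the values were 74.5%, 77.1%, 64.9% and 64.4%, higher than fresh in 4 of 4 animals. The remaining positive cells had few of the other 7 genes, with a median of 2 detected per cell against 6 in the pDC marker clusters, at median depths of 7241 and 7871.5 UMIs. All 7 were detected together in 29.2% of cells of the pDC marker clusters, in 22.9% of positive cells and in 0.0314% of cells with 0 Siglech UMIs, whose median depth was 3305 UMIs.

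The label was checked against 13 pDC markers. Besides Siglech, 9 of the other 12 were higher in positive than in remaining cells in 8 of 8 libraries. Bcl11a, a transcription factor of pDCs and B cells, had 81.9 CPM in positive and 13.0003 CPM in remaining cells. Spib, an ETS factor of the same cells, had 246 and 55.2 CPM, Ccr9, a chemokine receptor, had 55.0 and 11.5 CPM, and Tlr7, a sensor of viral RNA, had 87.0 and 31.97 CPM. Tlr9, a sensor of DNA, was among the 9 with only 18 UMIs in all positive cells. Cox6a2, Ly6d and Lair1 were near absent, at 16, 15 and 28 UMIs, and were higher in 1, 4 and 7 libraries. None of the 12 was among the top 10 genes by fold of a pDC marker cluster, and Flt3, from the list for conventional dendritic cells, led in 1 of the 3. Higher sums in positive cells were not particular to pDC markers. In fresh libraries conventional dendritic markers summed to 16316 to 17918 CPM in positive and 10228 to 12452 CPM in remaining cells. B markers summed to 494 to 672 and 170 to 482 CPM. NK/NKT markers were lower in positive cells, at 1829 to 2756 against 3573 to 5340 CPM.

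All 8 genes were several-fold higher in positive than in remaining cells of every library. The level of Siglech was 566 to 828 CPM in positive cells and 45.9 to 72.6 CPM in remaining cells, a ratio of 9.03 to 14.5 that follows in part from the rule. Kmo had 111 to 176 CPM against 9.91 to 24.01 CPM, and its ratio ran from 6.45 in fresh cells of NC1 to 11.7 in fresh cells of PC2. Pygm had 106 to 188 CPM against 12.8 to 27.1 CPM, with ratios of 5.36 to 10.4, and Gpm6b had ratios of 4.36 to 12.1.

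The other 4 genes had smaller ratios. Tcf4 ran from 3.91 to 6.84, Kdr from 4.10 to 7.23, Cyb561a3 from 4.12 to 6.86 and Irf8 from 3.47 to 4.94. For all 8 genes the lowest ratio belonged to the fresh library of NC1. Even the lowest was above 3, and since the genes were chosen by their level in these cells, nothing is read from it.

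**Figure D1:**
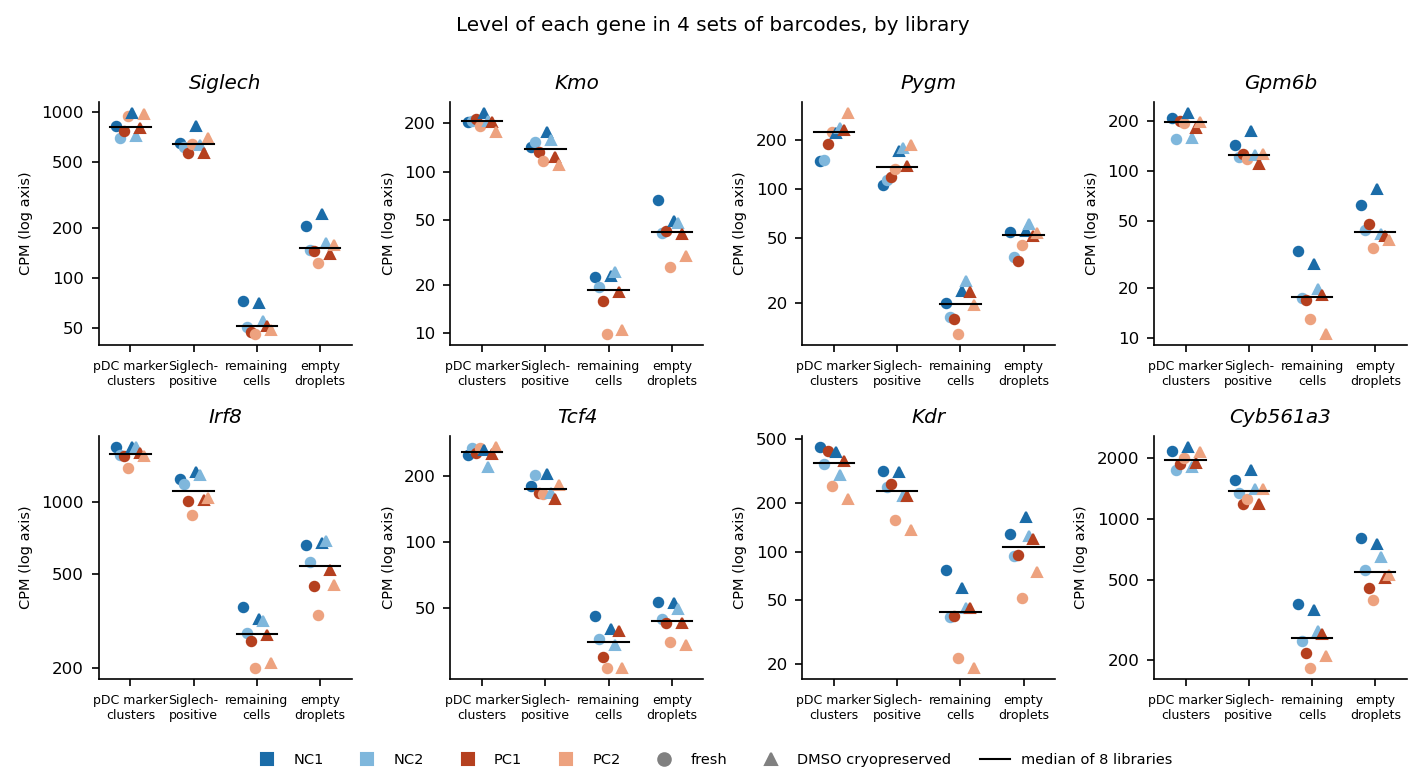
Level of each gene in CPM on a log axis in the pDC marker clusters, in Siglech-positive cells, in the remaining cells and in empty droplets, with 1 point per library and the median of the 8 libraries as a line. Every gene is lower in remaining cells than in positive cells of any library, which follows from the choice of the genes. Empty droplets lie between them in each of the 8 libraries, for Siglech in part through the rule that defines positive cells.

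Among 5333 genes with at least 50 UMIs in the positive cells of every library, ordered by the lowest of the 8 ratios with 1 UMI added, Siglech ranked 1, Kmo 3, Pygm 7, Gpm6b 23, Cyb561a3 30, Kdr 31, Tcf4 39 and Irf8 55. The genes most like them by this measure, over 8 libraries, were Bricd5, Fam131c, Epha1, AABR07016640.1, Spats2l, Paqr5, Ddr1, Smim22, Tm6sf2 and Cacng6. Bricd5 ranked 2, with a lowest ratio of 7.36, and Cacng6 ranked 13, with 4.61. Bcl11a followed at rank 14.

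The level in other cells was set beside that of free RNA. In empty droplets, the barcodes with up to 100 UMIs, Siglech had 123 to 243 CPM, more than the 45.9 to 72.6 CPM of remaining cells in any library. Over 13 populations of at least 200 cells outside the pDC marker clusters, Pygm, Irf8 and Kdr were below the summed empty droplets in 13 of 13. Siglech, Kmo, Gpm6b and Cyb561a3 were below them in 12 of 13 and Tcf4 in 10 of 13. In the cluster led by Cxcl1 and Ccl24, with 228 cells, Siglech reached 207 CPM and Kmo 55.3 CPM.

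The ratio of each gene to Siglech was also set beside that in empty droplets, and the part of free RNA in it was not tested. Empty droplets held 25.7 UMIs of Kmo per 100 UMIs of Siglech, and the 13 populations had a median of 20.2 and a highest value of 34.5, in the cluster led by Tnfaip8l3 and Wisp2. For Gpm6b the values were 29.3 and 23.9 and for Pygm 29.8 and 23.9. The pDC marker clusters had 24.1 of Kmo, 22.6 of Gpm6b and 24.8 of Pygm per 100 of Siglech. Kdr had 63.4 in empty droplets, a median of 46.9 and a highest value of 56.8 over the 13 populations.

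Cyb561a3, Tcf4 and Irf8 had their highest ratios in B-like cells or in the cluster led by Tnfaip8l3 and Wisp2. Cyb561a3 had 752 UMIs per 100 of Siglech in B-like cells, against 347 in empty droplets, and its level there was 488 to 683 CPM against 152 to 313 CPM in T-like cells, higher in 8 of 8 libraries. Tcf4 had 74.8 per 100 in B-like cells against 26.4 in empty droplets, and 42.4 to 67.1 CPM against 26.4 to 43.4 CPM in T-like cells, again higher in 8 of 8 libraries. Irf8 had 567 per 100 in the cluster led by Tnfaip8l3 and Wisp2, which also had Clec10a and Ccl17, genes of conventional dendritic cells, among its leading genes, against 320 in empty droplets. Its level there was 386 to 555 CPM against 167 to 307 CPM in monocyte-like cells, higher in 8 of 8 libraries. Summed over libraries it was 473 CPM, below the 502 CPM of Irf8 in the cluster led by Cxcl1 and Ccl24. These differences between populations were not tested.

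Kdr had 1 further location. A group of 27 endothelial-like cells, too few for a value per library, held 47 Kdr UMIs, or 596 CPM, against 353 CPM in the pDC marker clusters. Tcf4 also differed from the rest in its level outside the pDC marker clusters, which was 0.601 to 0.865 times that in empty droplets, while Kmo was at 0.312 to 0.432 times and Pygm at 0.277 to 0.410 times.

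**Figure D2:**
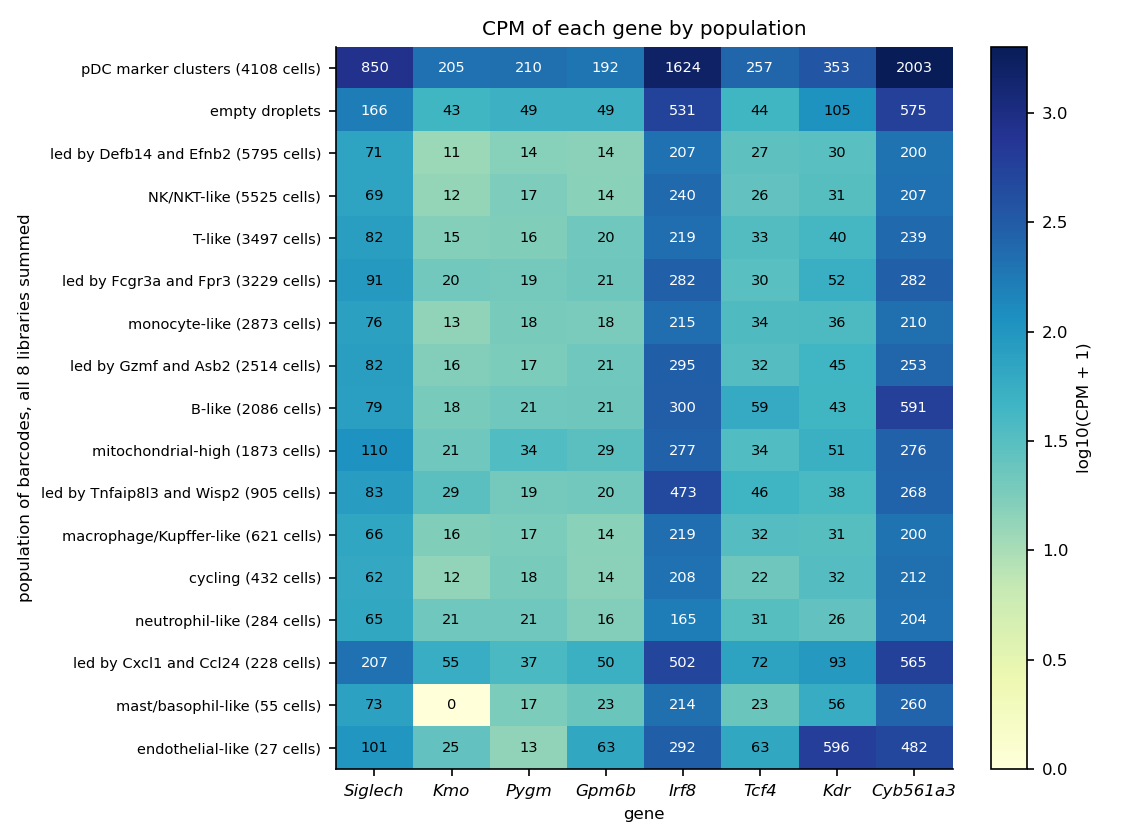
CPM of each gene (columns) in each population of barcodes (rows) summed over the 8 libraries, with colour on a log10 scale and cell numbers in brackets. The pDC marker clusters are highest for 7 of the 8 genes, and Kdr is higher in 27 endothelial-like cells. Next highest for Cyb561a3 are B-like cells (591 CPM), close to empty droplets (575 CPM). For Irf8 they are empty droplets (531 CPM) and the cluster led by Cxcl1 and Ccl24 (502 CPM), above that led by Tnfaip8l3 and Wisp2 (473 CPM).

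Siglech-positive cells took a larger share of cells after preservation in 4 of 4 animals. In NC1 the share was 18.9% (interval 17.8 to 20.1%) fresh and 22.3% (20.99 to 23.7%) preserved, and in NC2 12.3% (11.4 to 13.3%) and 15.8% (14.6 to 17.0%). In PC1 it was 12.3% (11.3 to 13.3%) and 17.8% (16.7 to 19.04%), and in PC2 11.8% (10.9 to 12.8%) and 14.1% (13.1 to 15.2%). The mean difference was 3.67 ± 1.37 percentage points (SD, n = 4 animals). It depended on the definition of the cells. With at least 3 UMIs of 6 panel genes, the 8 without Irf8 and Tcf4, it was 3.21 ± 4.90 points, and the share rose in 3 of 4 animals only. The pDC marker clusters, for which the 8 genes were left out of the clustering but Siglech is 1 of the 13 markers, rose by a mean of 4.12 ± 1.45 points, from 7.55 to 13.96% of fresh to 9.71 to 18.5% of preserved cells.

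The share of positive cells was set beside that in T-like cells and the share at equal depth, and the part of depth and free RNA in it was not tested. T-like cells, which should lack Siglech, held at least 2 Siglech UMIs in 4.94 to 9.71% of cells, at median depths of 3304 to 5150 UMIs against 7273 to 9396.5 UMIs in positive cells. Their share went up in 3 of 4 animals and down in NC1. With each cell thinned to 1000 UMIs and 238 to 426 shallower cells per library left out, 1.87 to 3.35% of fresh and 2.85 to 5.68% of preserved cells held 2 Siglech UMIs, against 0.119 to 0.716% of T-like cells. The difference was then 1.23 ± 0.747 points and was above 0 in 4 of 4 animals, although 656 CPM in positive cells is under 1 UMI at this depth and no change is read from it.

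**Figure D3:**
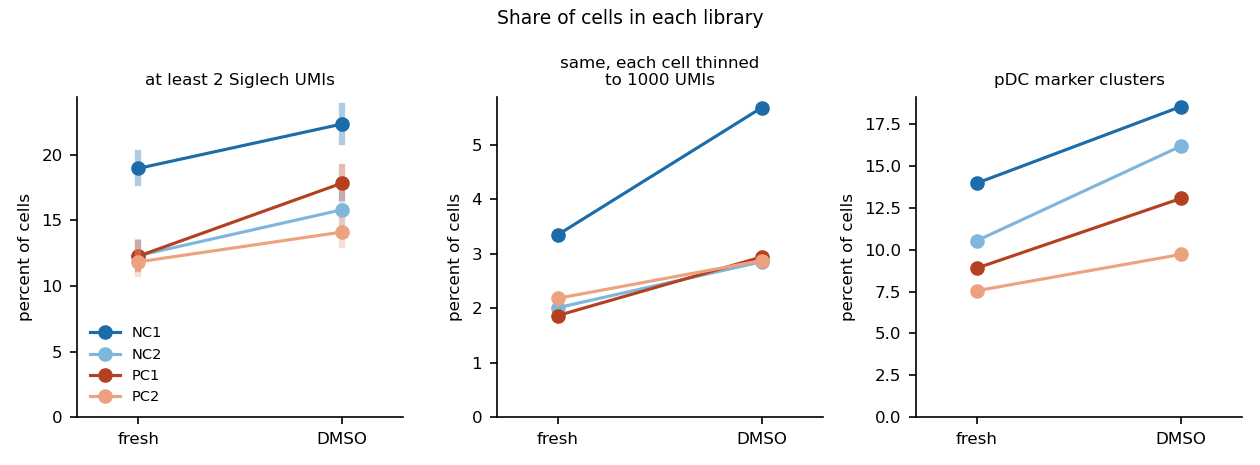
Percent of cells in fresh and DMSO cryopreserved libraries for cells with at least 2 Siglech UMIs (bars: exact binomial 95% intervals), the same after thinning to 1000 UMIs, and the pDC marker clusters, with 1 line per animal. All 12 lines go up.

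In whole libraries, the UMIs of all cells summed, the level of Siglech was 277 and 370 CPM in fresh and preserved cells of NC1, 173 and 210 CPM in NC2, 160 and 210 CPM in PC1 and 182 and 215 CPM in PC2. It was higher after preservation in 4 of 4 animals. Pygm had 49.9 and 81.4 CPM in NC1, 37.2 and 67.5 CPM in NC2, 38.02 and 58.6 CPM in PC1 and 40.1 and 62.3 CPM in PC2, and all preserved libraries were above all fresh ones. In a fit across 11505 genes with the animal as a block, edgeR's quasi-likelihood test with Benjamini-Hochberg adjustment called 6 of the 8 genes higher, where 9.07% of all genes were called. Since the genes were chosen with this contrast known, nothing is read from that count. The log2 changes of the 6 were 0.76 for Pygm, 0.39 for Siglech, 0.33 for Cyb561a3, 0.33 for Kmo, 0.28 for Irf8 and 0.26 for Gpm6b. Tcf4 changed by 0.22 and Kdr by 0.10. Without the block 16 genes were called in all and 0 of the 8, and the log2 changes of the 8 stayed between 0.11 and 0.76.

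The change of each gene in CPM was split for each animal into a part from the share of UMIs in positive cells, a part from the level in positive cells and a part from the level in remaining cells, which add up to the whole. Positive cells held 21.5 to 34.99% of the UMIs of fresh and 25.5 to 39.5% of those of preserved libraries. Siglech gained 53.6 ± 27.4 CPM (SD, n = 4 animals), of which 31.6 ± 12.2 CPM came from the share, 20.1 ± 29.9 CPM from the level in positive cells and 1.804 ± 2.01 CPM from remaining cells. Most of the level part came from NC1. The rule leaves remaining cells with fewer than 2 Siglech UMIs each, which keeps their part in the change of Siglech small. The share was the largest part of the mean change for 7 of the 8 genes, and for 6 without PC1, where the level part of Siglech (49.6%) passed its share part (47.8%). It made up 90.7% for Tcf4, 77.8% for Gpm6b, 62.3% for Kmo, 59.8% for Irf8, 59.0% for Siglech and 55.6% for Cyb561a3.

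Kdr and Pygm split differently. Kdr gained 3.65 ± 6.69 CPM in whole libraries, from 10.9 ± 6.11 CPM through the share and a part of -5.80 ± 4.22 CPM from the level in positive cells. Pygm gained 26.2 ± 5.57 CPM, of which 24.9% came from the share, 55.1% from the level in positive cells and 20.0% from the level in remaining cells. With 1 Siglech UMI as the threshold, the share was the largest part for 1 of the 8 genes, and with at least 3 UMIs of the panel genes other than the one measured for 2 of the 8. With at least 3 Siglech UMIs or with the pDC marker clusters it was the largest part for 7. The split between share and level thus changed with the definition of positive cells, while the level part of Pygm was the largest in each of these definitions. The definitions were not equally specific. The threshold of 1 UMI added 6499 cells, of which 4.52% lay in the pDC marker clusters. Except where Cyb561a3 was measured, the panel included it, a gene detected in 50.3 to 65.7% of remaining cells.

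**Figure D4:**
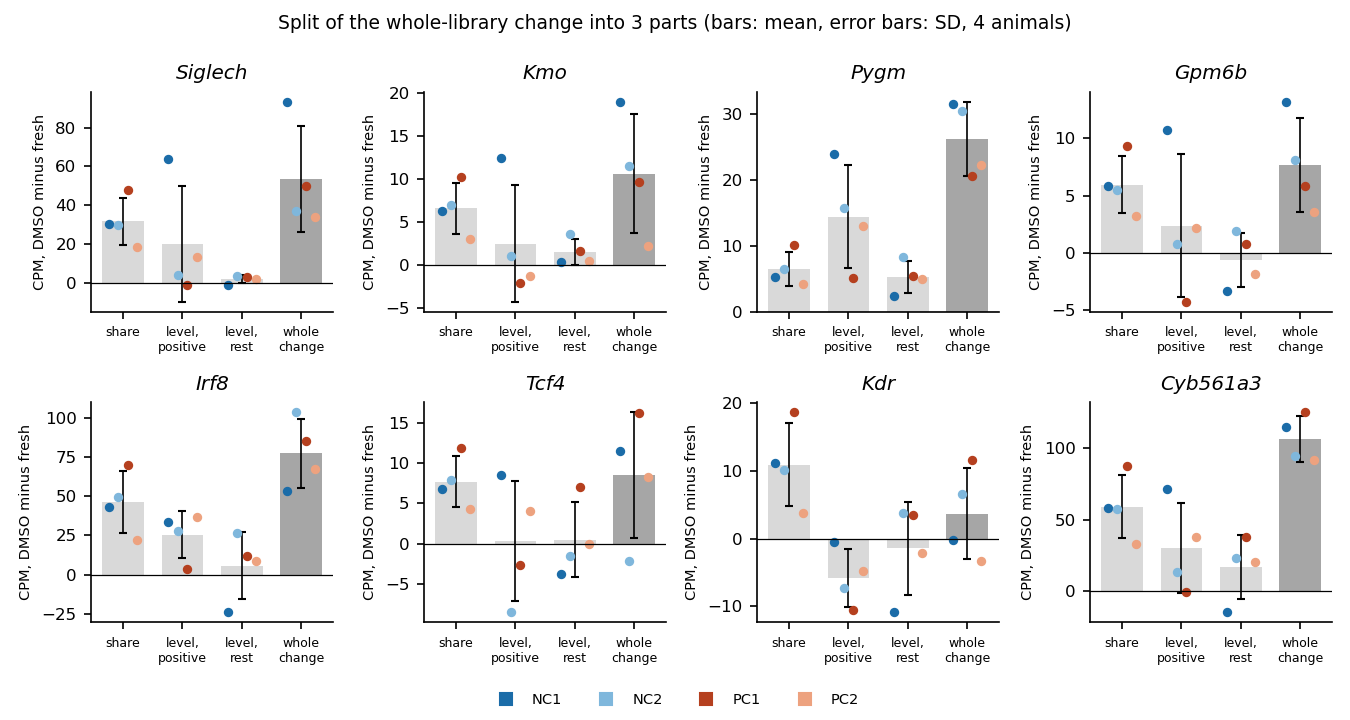
Change of each gene between the DMSO and fresh library in CPM, split into the parts from the share of positive cells, the level in positive cells and the level in the rest, beside the whole change (bars: mean, error bars: SD, points: 4 animals). The share part is above 0 in every animal for all 8 genes, which follows from the gain in share and the choice of genes high in positive cells. Only Pygm has its largest mean part in the level of positive cells.

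Within Siglech-positive cells, Pygm was higher after preservation in 4 of 4 animals. Its level was 106 CPM fresh and 170 CPM preserved in NC1, 113 and 178 CPM in NC2, 119 and 138 CPM in PC1 and 133 and 188 CPM in PC2. The preserved libraries did not overlap the fresh ones. In edgeR's quasi-likelihood test with the animal as a block its log2 change was 0.54 (SE 0.0746, adjusted p = 0.00259), where 3.94% of 9425 genes tested were called, 167 higher and 204 lower. Pygm was the 1 gene called among the 7 tested, since Siglech defines the cells and was not tested. Pygm was chosen with its whole-library change known, of which this level is the largest part, so the test is not independent of that choice. Without the block the log2 change was 0.55 and the adjusted p 0.173.

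The rise of Pygm was also present in the pDC marker clusters, which held 59.9 to 77.1% of the positive cells, so the sets share cells. In these clusters its level was 148 and 222 CPM in NC1, 152 and 238 CPM in NC2, 188 and 230 CPM in PC1 and 224 and 295 CPM in PC2. Fresh cells of PC2 lay above preserved cells of NC1, so fresh and preserved libraries overlapped. The log2 change was 0.51 (SE 0.068, adjusted p = 0.000364 by the same edgeR test), where 6.35% of 8611 genes were called. In the 6 pairs of an animal and a single cluster with at least 20 cells in both libraries, preserved cells had 1.22 to 1.66 times the level of fresh cells. The share of positive cells with a Pygm UMI was 45.6 to 51.3% fresh and 53.6 to 59.0% preserved. In empty droplets, Pygm was 1.02 to 1.61 times as high in preserved libraries, and in remaining cells 1.19 to 1.67 times.

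Kdr went the other way within these cells without passing the test. Its level in positive cells was 315 CPM fresh and 314 CPM preserved in NC1, 251 and 220 CPM in NC2, 264 and 223 CPM in PC1 and 157 and 137 CPM in PC2. All 4 animals were lower, and the groups overlapped because the animals differed more than the preservations did. The log2 change was -0.12 (SE 0.0596, adjusted p = 0.267 in edgeR). In the pDC marker clusters it was -0.18 (adjusted p = 0.0694 in edgeR), lower in 4 of 4 animals, and it was lower in all 6 pairs of an animal and a cluster.

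The remaining genes did not pass the test. The log2 change of Irf8 was 0.15 with a 95% interval from 0.04 to 0.26 before adjustment (adjusted p = 0.109 in edgeR), and its level was higher in 4 of 4 animals, at 888 to 1252 CPM fresh and 1028 to 1342 CPM preserved. Cyb561a3 changed by 0.13 (interval 0.02 to 0.24) and was higher in 3 of 4 animals. Gpm6b changed by 0.09 (interval -0.07 to 0.24), Kmo by 0.08 (interval -0.08 to 0.24) and Tcf4 by 0.02 (interval -0.14 to 0.18). Siglech itself was at 570 to 656 CPM fresh and 566 to 828 CPM preserved. With 1 Siglech UMI as the threshold, Kmo, Gpm6b, Irf8 and Cyb561a3 were called as well, at log2 changes of 0.24 to 0.28, in a fit that called 742 of 10421 genes. That fit included 6499 cells with 1 Siglech UMI, of which 4.52% lay in the pDC marker clusters.

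**Figure D5:**
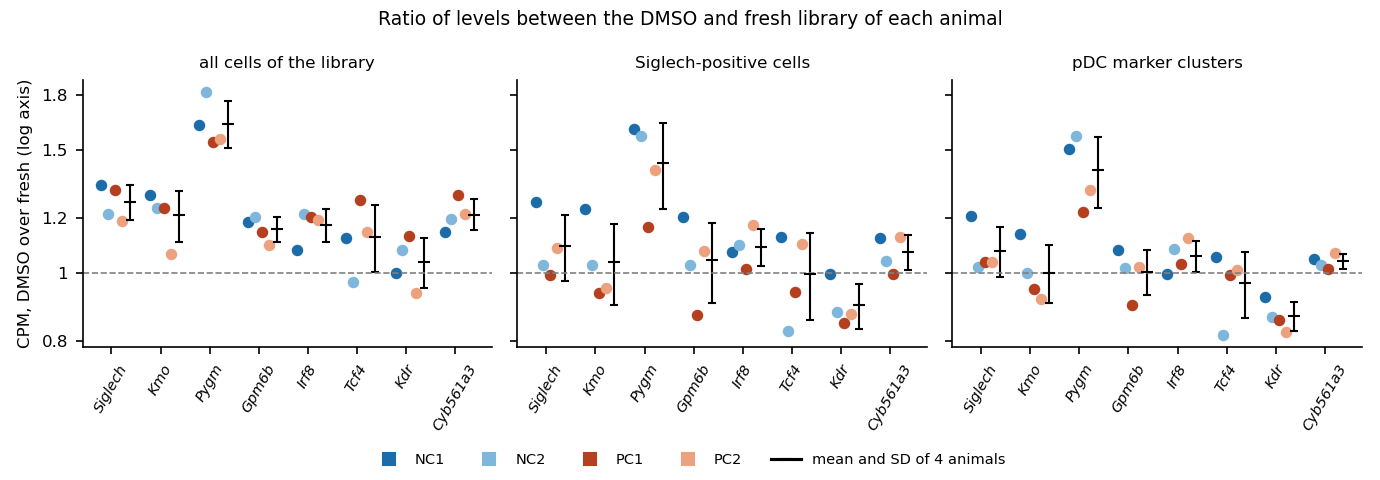
Ratio of CPM between the DMSO and fresh library of each animal on a log axis for all cells, Siglech-positive cells and the pDC marker clusters, with the mean and SD of 4 animals. Pygm stays above 1 in every animal and panel, and Kdr lies below 1 in every animal within positive cells and the pDC marker clusters.

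Composition of the positive cells was set beside these levels. Besides the higher part of positive cells in the pDC marker clusters, the 8 NK/NKT markers found among 9 listed summed to 1829 to 2756 CPM in positive cells of fresh and 835 to 3014 CPM of preserved libraries. The 8 monocyte markers summed to 4334 to 9090 and 3228 to 8233 CPM, and the 8 hepatocyte markers to 185 to 406 and 138 to 345 CPM. These ranges overlapped. Medians of fresh and preserved libraries were lower after preservation for NK/NKT (2454 and 1956 CPM) and hepatocyte markers (306 and 268 CPM). They were higher for monocyte (6082 and 6229 CPM), conventional dendritic (17084 and 18888 CPM) and cycling markers (351 and 423 CPM). Their part in the changes of the 7 genes was not tested. Pygm rose by 0.51 on the log2 scale in the pDC marker clusters, where monocyte markers summed to 2649 to 4977 and 2207 to 4695 CPM.

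Genes that work with the 8 were counted within positive cells from lists without the 8 themselves, chosen with earlier results of these data known. Their counts are set beside the 3.94% of all genes called, 1.77% of all genes being called higher, and their log2 changes beside the median of all genes, -0.01. Of 26 other pDC genes 21 were tested, 2 were higher and 0 lower, with a median of 0.04. Those 2 were Bcl11a, with a log2 change of 0.52 (edgeR, adjusted p = 0.00204), and Lag3, an inhibitory receptor, with 0.38 (edgeR, adjusted p = 0.0189). Of 11 tested genes that link nucleic acid sensing to interferon, and of 7 other interferon regulatory factors, 0 were called, and the median of the first was 0.09. In the pDC marker clusters, where 6.35% of all genes were called, 1 of 10 tested sensing genes was higher. It was Unc93b1, with a log2 change of 0.19 (edgeR, adjusted p = 0.0327).

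The partners of Tcf4 were 5 tested E proteins and inhibitors, of which Id1, an inhibitor of E proteins, was higher by 0.59 (edgeR, adjusted p = 0.0189) and Id2, the inhibitor that opposes Tcf4 in dendritic cells, had -0.43 (edgeR, adjusted p = 0.0812). In the pDC marker clusters these calls changed places, with 0.44 for Id1 (edgeR, adjusted p = 0.121) and -0.53 for Id2 (edgeR, adjusted p = 0.0138). The liver form of glycogen phosphorylase, Pygl, had a log2 change of 0.25 (edgeR, adjusted p = 0.281). Of 4 tested genes of the kynurenine pathway 0 were called, and Kynu had 0.40 (edgeR, adjusted p = 0.059). None of 4 tested receptors and ligands of the VEGF family, 2 of the cytochrome b561 family and 6 sialic acid binding lectins with Tyrobp was called, and of the proteolipid family 0 of 2 could be tested. Apart from such partners, 11 of 12 tested early response genes were higher, with a median of 1.26, and only Nfkbia was not called. The paper already reports higher Fos, Fosb and Jun in cryopreserved cells of all animals, so nothing is read from this count.

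The 10 largest called changes alike in 4 of 4 animals did not include the 8 genes, and Pygm ranked 127 of 352 by size. Fosb, Fos, Jun and Dusp1, which respond within minutes to stress and stimulation, rose by 5.09, 4.49, 3.84 and 2.21 on the log2 scale. AABR07059198.1 rose by 1.97, from 2 to 18 UMIs per fresh library to 30 to 34. LOC680406, AABR07050006.1, Ttr, Fabp1 and 1700066B19Rik were lower, with log2 changes from -2.51 to -2.10, each with at most 8 UMIs in any preserved library. Ttr and Fabp1 are genes of hepatocytes.

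Between diets, none of the 8 genes passed the test in fresh cells. Of 9512 genes tested within positive cells 2.38% were called between PC1 and PC2 on the CDAA diet and NC1 and NC2 on the CSAA diet, and 0 of the 7 tested genes were among them. Irf8 had the lowest unadjusted p, with 1252 and 1191 CPM on the CSAA diet and 1014 and 888 CPM on the CDAA diet. The log2 difference was -0.38 (SE 0.112, adjusted p = 0.141 in edgeR). The diets did not overlap for Irf8, and with 2 animals per diet nothing is read from this. Kdr had 315 and 251 CPM against 264 and 157 CPM, groups that overlapped, with a log2 difference of -0.45 (adjusted p = 0.368 in edgeR). Cyb561a3 had -0.27, Kmo -0.27, Tcf4 -0.23, Gpm6b -0.13 and Pygm 0.19. Preserved libraries of the same animals gave -0.39 for Irf8, -0.59 for Kdr, -0.54 for Kmo and -0.14 for Pygm. In that fit 217 of 9577 genes were called and 0 of the 7, from which nothing is read.

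In whole fresh libraries 1.18% of 11772 genes were called between the diets and 0 of the 8, although all 8 were lower on the CDAA diet, by -0.14 for Pygm to -0.78 for Kdr on the log2 scale. Fresh cells of NC1 had the highest level of every one of the 8 genes in whole libraries. Without NC2, which left NC1 as the only CSAA animal whose spread is assumed to be that of the others, 7 of the 8 were called, among 819 of 12254 genes. The share of positive cells in fresh libraries was 18.9 and 12.3% on the CSAA and 12.3 and 11.8% on the CDAA diet, so that NC2 and PC1 differed by less than their intervals. Of the cells in the pDC marker clusters, those of NC1 lay mostly in cluster 10 and those of NC2 in cluster 11. Those of both PC1 and PC2 lay mostly in cluster 19. With 2 animals per diet, diet and animal cannot be told apart.

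The change with preservation did not differ between diets by the test for any of the 7 genes within positive cells. The interaction called 0.0849% of 9425 genes, 8 genes in all. For Pygm the log2 change was lower on the CDAA diet by a difference of -0.31 (SE 0.128, adjusted p = 0.82 in edgeR), and for Kmo by -0.26 (SE 0.132, adjusted p = 0.893 in edgeR). Irf8 had a difference of 0.01 and Cyb561a3 one of -0.03.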

How the data were processed

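UMI counts per gene and barcode were deposited by the authors as whole numbers without normalization or selection of cells, made with Cell Ranger 2.1.1 on Rnor6.0 with Ensembl release 86, per the paper's methods and the submitters' processing notes. The 8 genes and all lists were chosen with earlier results of these data known. Barcodes with at least 500 UMIs and 100 genes were kept as cells in Python 3.11.15. Doublets were not removed in the values reported. As an alternative, the highest Scrublet scores were left out, at 0.8% per 1000 cells. Cells were clustered in scanpy 1.11.5 (2000 variable genes without the 8 genes and early response genes, 20 components, Leiden resolution of 0.4, no alignment of animals). Counts summed per library were tested with edgeR 4.0.16 (quasi-likelihood, TMM, its filter on low counts, Benjamini-Hochberg adjusted p under 0.05), and DESeq2 1.42.0 was an alternative. Libraries were paired by the animal in the labels, and fresh and preserved libraries of an animal deviated together, with correlations over 8397 genes of 0.499 to 0.658 against at most 0.298 with other animals. Named genes were the 8, the 10 others most specific to positive cells and the 10 largest called changes alike in 4 of 4 animals. In simulated data for preservation within positive cells (9463 genes), 93 of 98 genes changed by 1 on the log2 scale and 97 of 102 changed by 1.5 were found, with 5 false calls, and for diet (9431 genes) 38 of 93 and 86 of 107, with 8. Smaller changes were not simulated, so these rates do not describe changes as small as those of the 8 genes. The spread between libraries was set to the same size for all genes and not estimated, so the rates hold for the simulated data only. The choice of the pDC marker clusters and of their Siglech-positive cells as a further definition was made after seeing the data. Promoters were taken from RefSeq. The count for the list of glycogen genes is not reported here.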

Additional observations from a re-analysis of the deposited data

Results flagged for a closer look

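Ratios of the preserved to the fresh level of Kmo lay on either side of 1 by diet, with 2 animals each. In Siglech-positive cells the preserved library had 1.23 and 1.03 times the fresh level in NC1 and NC2 on the CSAA diet, and 0.937 and 0.952 times in PC1 and PC2 on the CDAA diet, so that the diet means differed by 0.185. In the pDC marker clusters the ratios were 1.136, 1.001, 0.9498 and 0.917, and the diet means differed by 0.135. Every animal of one diet was thus above 1 and every animal of the other below it, NC2 by little. By single cluster this did not hold throughout. NC1 had 1.138 in cluster 10 and 1.268 in cluster 11, and NC2 had 0.998 in cluster 11. PC1 had 1.427 in cluster 11, from 24 fresh and 25 preserved cells, and 0.942 in cluster 19, and PC2 had 0.915 in cluster 19. The interaction in edgeR did not pass the test (log2 difference -0.26, adjusted p = 0.893). Groups of 2 animals are too small for a test of single libraries that stand apart.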

How the results depend on the processing

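With the animal as a block 371 genes were called with preservation within positive cells and 1044 in whole libraries, and without the block 5 and 16. The pairing thus decided these counts, and the log2 change of Pygm in positive cells stayed at 0.55 without it (adjusted p = 0.173 in edgeR). Within positive cells the count was 160 by the DESeq2 test, 955 without the filter on low counts, 742 at 1 Siglech UMI, 761 with the panel genes and 34 at a change of 2-fold, and 600 without NC1, 83 without NC2, 219 without PC1 and 113 without PC2. In whole libraries it was 92 at 2-fold and with 1 animal left out 207 (NC2) to 1320 (NC1). Of the 226 genes called by diet in positive cells, other settings called 933 (no filter), 119 (pDC marker clusters), 143 (their positive cells) and 60 (without PC2) to 503 (without NC2). Of 139 in whole libraries they called 735 (DESeq2), 560 (no filter), 73 (preserved libraries) and 23 (without PC2) to 819 (without NC2). The interaction had 8 calls and 1 by DESeq2, 108 without the filter, 4 in positive cells of the pDC marker clusters, 0 without the block, at 1 or 3 Siglech UMIs, with the panel or in the clusters, and 0 without PC2 to 187 without NC2. The gain in positive cells was 1.23 points after thinning, and the share was the largest part for 1 gene at 1 Siglech UMI and for 2 with the panel. Signs turned for small values only. Kmo changed by -0.012 to 0.133 with 1 animal left out and was below 0 without NC1. Tcf4 changed by -0.043 to 0.103 with 1 animal left out, below 0 without NC1 and without PC2 (-0.0139), -0.0402 at 3 Siglech UMIs, -0.0282 in the pDC marker clusters and -0.0303 in their positive cells. Kdr changed by 0.0229 at 1 Siglech UMI. By diet, Pygm had -0.135 in preserved positive cells and -0.319 to 0.0712 in whole libraries with 1 animal left out, above 0 without NC1. Gpm6b had 0.0018 at 3 Siglech UMIs, 0.0912 in the clusters and 0.0952 in their positive cells. Irf8 (-0.39) and Kdr (-0.46) were called by diet in positive cells without the filter, and Kdr (-0.88) without PC1. Causes were not tested.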
